A study of Mus musculus with 7 samples.

Results

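The genes described here build ribosomes: 49 named genes for RNA polymerase I, for the small nucleolar ribonucleoproteins (snoRNPs) that modify ribosomal RNA (rRNA), and for the factors that cut, fold and assemble rRNA into the small and large subunits. They were taken by symbol from the array's annotation, 1 gene by its brightest probe set over all 7 arrays. Of the 49 genes, 45 had a probe set with the gene as its only symbol, and 43 were bright enough to be tested among 8077 genes in all. Dkc1, Utp14a, Nob1 and Mrto4 had no such probe set. Rrp9 and Ftsj3 lay below the limit on dim probe sets.

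RNA was measured on 7 arrays, 1 for each sample of LSK cells, a bone marrow gate without lineage markers but with c-Kit and Sca-1 on the surface. This gate holds blood stem cells together with early progenitors. Both groups were adult C57BL/Ka-CD45.2:Thy-1.1 mice with the floxed Lkb1 allele (Lkb1 L/L), and both received tamoxifen for 5 days. The 4 Lkb1 KO samples (numbers 4 to 7) came from mice that also carried rosa26CreERT2, a Cre recombinase switched on by tamoxifen, and the 3 Lkb1 WT samples (numbers 5 to 7) from mice without it. Cells were sorted 1 day after the last dose, 15000 to 20000 for each sample, and about 10 ng of RNA was amplified. Rosa26 drives Cre in most tissues, so deletion was not restricted to blood cells, and Cre itself was present in KO mice alone. No label says whether samples came from different mice, so every p-value reflects sample-to-sample spread alone, part of which could be technical.

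Ribosome production starts in the nucleolus, where RNA polymerase I transcribes the ribosomal DNA into a long precursor. Box C/D snoRNPs methylate this precursor on its riboses, box H/ACA snoRNPs turn selected uridines into pseudouridine, and a large set of helicases, GTPases and scaffold proteins separates the future small and large subunits. Blood stem cells are known for low protein synthesis and for sensitivity to faults in ribosome assembly. LKB1, the product of Lkb1 (gene symbol Stk11), activates AMPK, a kinase known to restrain growth pathways and rRNA synthesis.

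In the KO samples the set as a whole sat slightly higher than in WT, and 6 of the 43 tested genes rose. They were Bysl, Nhp2, Nop58, Nolc1, Rrs1 and Nop16, and none of the 43 fell (limma, Benjamini-Hochberg adjusted p under 0.05 over all 8077 genes). The 6 are 14.0% of the set, beside 2.48% of all tested genes that rose and 2.96% that fell. The difference KO minus WT was above 0 for 42 of the 43 genes, beside 47.6% of all tested genes. The median difference of the set was 0.26 on the log2(signal + 16) scale, beside -0.02 over all genes. These differences were small, with a range from -0.03 in Gar1 to 0.86 in Bysl. All values are on that log2 scale after quantile normalization, unless another scale is named, and errors on differences are limma standard errors. In 22 of the 43 genes (51.2%) every KO array lay above every WT array, a pattern seen in 11.4% of all tested genes. In none did every KO array lie below every WT array, beside 12.7% of all tested genes. At an unadjusted p under 0.05 in limma, 21 of the 43 genes were higher, beside 11.7% of all.

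**Figure D1:**
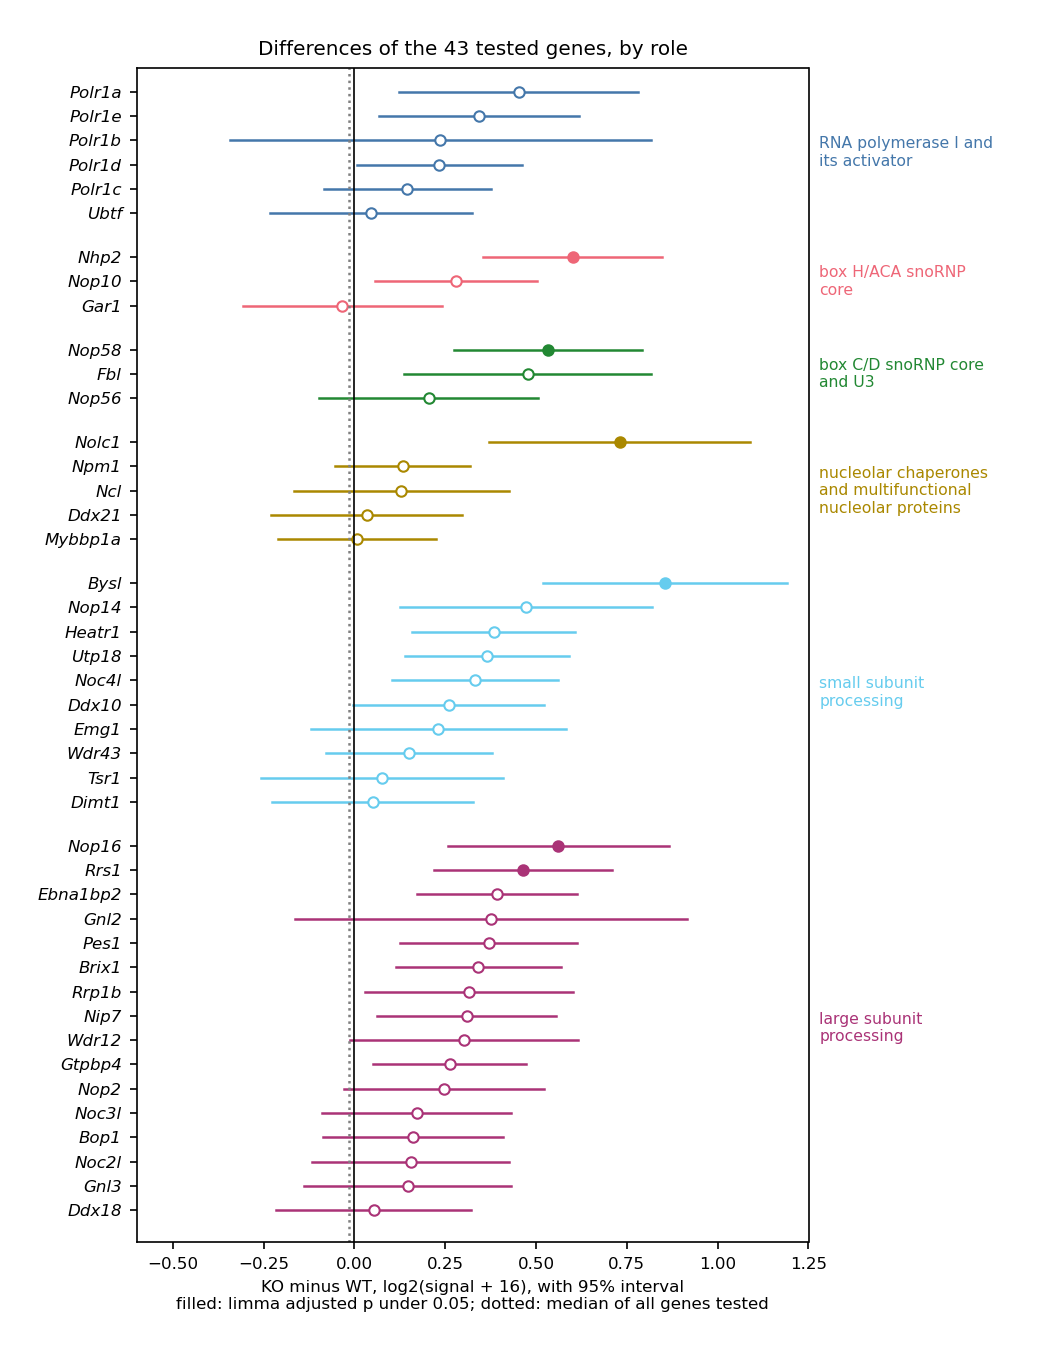
Difference KO minus WT (x axis, log2 units) with its 95% interval for each of the 43 tested genes (listed by name), coloured by role, with filled points for the 6 genes that passed the threshold. Points lie to the right of 0 for 42 genes, and the dotted line marks the median of all genes at -0.02.

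The calls rested on few arrays. Leaving out 1 sample at a time, the number of these genes that rose was 0 without KO 4, KO 7, WT 5 or WT 6, 1 without WT 7, and 2 without KO 5 or KO 6. The median difference stayed between 0.23 and 0.31 in those 7 fits, and 38 to 43 of the genes had a difference above 0. The median over all tested genes stayed between -0.02 and -0.01. Of all tested genes, 0.607% rose without KO 4, 0.557% without KO 5, 0.941% without KO 6, 0.099% without KO 7, 0.532% without WT 5, 0.359% without WT 6 and 0.31% without WT 7. Scaling between arrays changed the counts more. Over all genes the deposited signals had a median difference of 0.34 in favour of KO, and on that scale 26 of the 43 genes rose, beside 16.9% of all genes. With arrays centred on their medians 15 rose, beside 6.74% of all genes. Other settings gave 6 genes with cyclic loess (2.35% of all genes), 4 with a pseudocount of 1 (2.15%) and 8 with a pseudocount of 64 (4.06%). The count was 0 of 45 with no filter (0.218%), 10 of 38 with a filter at the 60th percentile (6.06%) and 12 with a prior variance that depends on level (5.5%). It was 5 with the mean of a gene's probe sets (2.25%) and 5 with array weights (2.03%). The share of all calls that were higher was 45.6% with quantile normalization, 96.7% as deposited and 76.3% with median centring. The set's median lay above that of all genes by 0.28 with quantile normalization, by 0.30 with cyclic loess and by 0.33 as deposited. Median centring shifts each array by a constant, so its gap of 0.33 equals the deposited one by construction and is no second reading.

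Seen array by array, the set did not move evenly. The median deviation of the 43 genes from their own 7-array means was 0.18 in KO 4, -0.01 in KO 5, 0.11 in KO 6 and 0.17 in KO 7. It was -0.14 in WT 5, -0.21 in WT 6 and -0.11 in WT 7. KO 5 therefore lay between the other KO arrays and the WT arrays: 20 of its 43 genes were above their own mean, beside 42, 32 and 39 in KO 4, 6 and 7, and 6, 1 and 10 in WT 5, 6 and 7. Without KO 5 the median difference was 0.31.

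**Figure D2:**
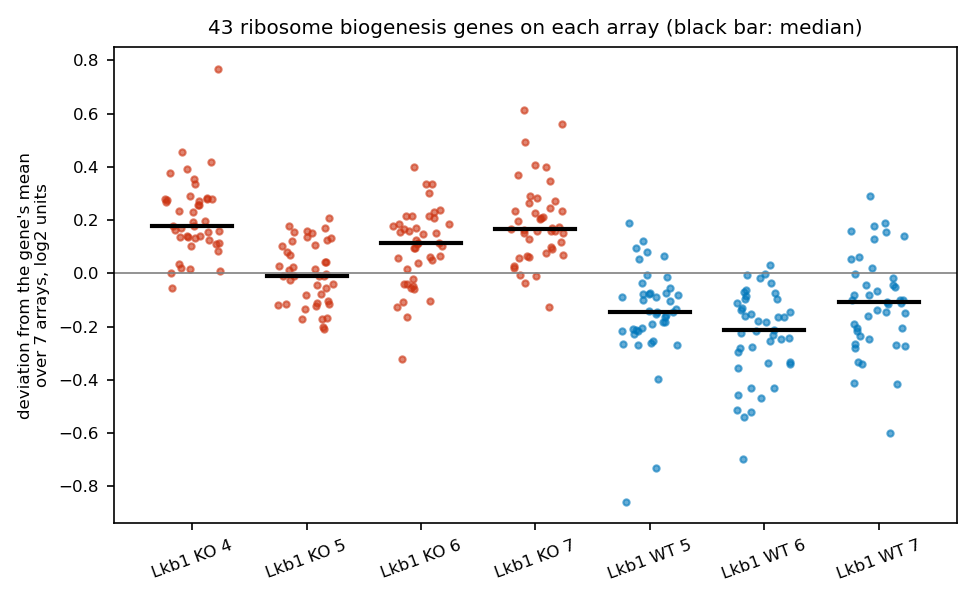
Each point is 1 of the 43 genes on 1 array, as its deviation in log2 units (y axis) from the gene's mean over the 7 arrays (x axis: array), KO in red and WT in blue, with the median as a black bar. The medians of KO 4, KO 6 and KO 7 lie at 0.11 to 0.18, that of KO 5 at -0.01 and those of WT at -0.21 to -0.11.

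Several other features of the samples also differed between KO and WT. Markers of mature granulocytes, cells that the gate should leave out, were measured by 8 of 10 listed genes above the limit on dim probe sets. All 8 fell in KO, and the summed signal of the 9 with a probe set ran from 8524 to 11994 in KO against 25577 to 35072 in WT. Cxcr2 of this list was below that limit and not tested, and its mean signal went the other way (29.96 in KO, 24.15 in WT). Whether mature granulocytes themselves were fewer was not tested. DNA replication genes were higher, with 8 of 16 tested risen and none fallen, and summed signals between 45251 and 48705 in KO beside 35609 and 36632 in WT. The median deviation of these 16 genes was 0.22, 0.20, 0.10 and 0.27 in KO 4 to 7, lowest in KO 6. That of the 8 granulocyte genes was -0.99, -0.58, -0.71 and -0.65, with KO 5 nearest to WT and KO 4 farthest. How these values relate to those of the ribosome set on the same arrays was not tested. Erythroid markers summed to between 2270 and 3274 in KO, below the 3747 to 5232 of WT, and 1 of 5 tested, Ermap, fell. Monocyte and macrophage markers were the other way round, with sums of 3513 to 5857 in KO beside 2260 to 3341 in WT, and none of 5 passed. Of the endothelial and stromal markers 1 of 3 fell, while none of 4 megakaryocyte and none of 2 B cell markers passed. None of the 6 measured T and NK cell markers was above the limit on dim probe sets, and no gene of these lists was at 0 on any array. Of the markers that define the gate, Kit fell by 0.43 (limma adjusted p = 0.0465; a difference of 0.01 in the scaling as deposited), and Ly6a, which encodes Sca-1, had no probe set of its own. For the Actb controls, whose 3' over 5' signal reflects RNA length, that ratio lay between 11.4 and 12.3 in KO but between 12.6 and 13.1 in WT (two-sided exact permutation p = 0.0571). The deposited trimmed means, 360.4 to 425.9 in KO beside 228.6 to 340.5 in WT, did not overlap. With the Actb ratio in the model, none of the 43 genes passed and 30 had a difference above 0, and none of all 8077 genes passed either (0%). As the ratio did not overlap between the groups, that fit can hardly separate it from genotype. The part of these features in the differences below was not tested. In RNA from pooled cells, a change in the makeup of the cells and a change of RNA per cell cannot be told apart.

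Stk11, the deleted gene, was measured at 7.18, 6.98, 6.68 and 6.44 in KO 4 to 7 and at 7.63, 7.16 and 7.35 in WT 5 to 7. The groups overlapped (difference -0.56 ± 0.19, limma adjusted p = 0.117). Whether its probe set lies in the deleted part is not known here, so it does not check the labels.

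The RNA polymerase I genes of the set gave no call. None of the 5 subunits in the set or Ubtf passed the threshold. The difference was above 0 for all 6, beside 47.6% of all tested genes, with a median of 0.24. Polr2f and Polr2h, subunits that polymerase I shares with RNA polymerases II and III, lie outside the set and rose, as given below. Polr1a, the catalytic subunit, was at 6.97, 6.80, 6.84 and 7.27 in KO 4 to 7 and at 6.38, 6.74 and 6.43 in WT 5 to 7. The groups did not overlap, though KO 5 and WT 6 nearly touched, and the difference was 0.45 ± 0.14 (limma adjusted p = 0.0995). The dimmer Polr1a probe sets gave differences of 0.09 and 0.50, each with overlap (two-sided exact permutation p = 0.629 and 0.229). Polr1b, the partner of Polr1a in the active centre, was at 7.78, 7.01, 6.69 and 6.97 in KO and at 6.93, 6.56 and 7.14 in WT. The groups overlapped and KO 4 stood highest, and the difference was 0.24 ± 0.25 (limma adjusted p = 0.596), with an interval from -0.34 to 0.82. Without KO 4 it was 0.014, and without WT 6 it was 0.077.

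Polr1e, a subunit particular to polymerase I, had a difference of 0.34 ± 0.12 (limma adjusted p = 0.125). Polr1c and Polr1d, subunits shared with RNA polymerase III, were at 0.15 (limma adjusted p = 0.403) and 0.23 (limma adjusted p = 0.187). In each of these 3 genes the lowest KO array lay above the highest WT array. The lack of calls depended on scaling: as deposited, Polr1a (0.75, limma adjusted p = 0.0189), Polr1d (0.67, limma adjusted p = 0.0301) and Polr1e (0.74, limma adjusted p = 0.0197) passed, and Polr1e did so with median centring (0.47, limma adjusted p = 0.0473). Ubtf, the factor that opens ribosomal DNA for polymerase I, was at 8.56, 8.31, 8.31 and 8.59 in KO and at 8.35, 8.26 and 8.58 in WT. The groups overlapped throughout, with a difference of 0.05 ± 0.12 and an interval from -0.23 to 0.32 (limma adjusted p = 0.848).

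Among box H/ACA proteins, which carry out pseudouridylation, 1 of 3 tested genes rose, beside 2.48% of all tested genes. Nhp2, a core protein that binds the guide RNA, was at 10.73, 10.48, 10.40 and 10.66 in KO 4 to 7 and at 10.04, 9.97 and 9.89 in WT 5 to 7. Every KO array was above every WT array, and the gap between the groups was wider than the spread within either. Nhp2 rose by 0.60 ± 0.11, or 1.52-fold (limma adjusted p = 0.0252), and was past the threshold in 1 of the 7 fits without a sample.

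The other core proteins did not pass. Nop10, the smallest of the core proteins, had a difference of 0.28 ± 0.10 (limma adjusted p = 0.124) with no overlap between groups. Gar1 was at -0.03 ± 0.12 (limma adjusted p = 0.887), or 0.41 in the scaling as deposited and 0.14 with median centring. It was the 1 gene of the set with a difference below 0.

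Box C/D proteins, which hold the methylation guides, gave 1 call among 3 tested genes, beside 2.48% of all tested genes that rose. Nop58, a scaffold of the particle, was at 8.81, 8.64, 8.68 and 8.63 in KO and at 8.31, 7.94 and 8.21 in WT. The KO arrays lay close together and all above WT, and Nop58 rose by 0.53 ± 0.11, or 1.45-fold (limma adjusted p = 0.0358). It passed in none of the 7 fits without a sample. Fbl, the methyltransferase, was at 10.87, 10.61, 10.72 and 10.99 in KO and at 10.59, 10.06 and 10.32 in WT. The lowest KO array, KO 5, was only just above WT 5, and the difference was 0.48 ± 0.15 (limma adjusted p = 0.0945). Nop56, the paralogue that pairs with Nop58, was at 0.20 ± 0.13 with overlapping groups (limma adjusted p = 0.369). Rrp9, the protein particular to the U3 particle, had deposited signals of 44.6, 45.7, 28.9 and 17.3 in KO and 54.6, 22 and 16 in WT, too dim for the test.

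Among 5 tested genes for abundant nucleolar proteins 1 rose, beside 2.48% of all tested genes. That gene was Nolc1. It encodes a phosphoprotein of nucleoli and Cajal bodies that binds snoRNPs. It was at 9.27, 8.81, 9.22 and 9.23 in KO 4 to 7 and at 8.60, 8.12 and 8.48 in WT 5 to 7. The groups did not overlap, and KO 5 lay closer to the highest WT array than to the other KO arrays. Nolc1 rose by 0.73 ± 0.16, or 1.66-fold (limma adjusted p = 0.0378), and passed in 1 of the 7 fits, that without KO 5.

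Npm1 and Ncl, which encode nucleophosmin and nucleolin, did not pass. Ncl was at 11.35, 11.06, 11.43 and 11.28 in KO and at 11.28, 10.93 and 11.25 in WT. The groups overlapped, with a difference of 0.13 ± 0.13 and an interval from -0.17 to 0.42 (limma adjusted p = 0.570), and without WT 6 the difference was 0.016. Npm1 was at 13.73, 13.83, 13.77 and 13.73 in KO and at 13.63, 13.65 and 13.63 in WT. Its groups did not overlap, but the difference was 0.13 ± 0.08 (limma adjusted p = 0.343), and it was -0.02 with median centring and -0.04 with cyclic loess. A dimmer Npm1 probe set gave 11.56, 11.73, 11.55 and 11.52 in KO and 11.18, 10.70 and 11.24 in WT. That is a difference of 0.55 without overlap (two-sided exact permutation p = 0.0286, the smallest these 7 samples allow). The helicase gene Ddx21 and Mybbp1a, a regulator of polymerase I, were at 0.03 (limma adjusted p = 0.881) and 0.01 (limma adjusted p = 0.974).

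Of 10 tested genes for the small subunit, 1 rose, beside 2.48% of all tested genes. All 10 had a difference above 0, beside 47.6% of all tested genes, with a median of 0.30. With 1 call, a role of so few genes is not set apart from the others. Bysl encodes bystin, needed late in maturation of the small subunit precursor. It was at 7.98, 7.74, 7.89 and 8.20 in KO 4 to 7 and at 6.85, 7.12 and 7.32 in WT 5 to 7. Every KO array exceeded every WT array, with KO 7 the highest and WT 5 the lowest. Bysl rose by 0.86 ± 0.15, or 1.81-fold (limma adjusted p = 0.0237), the largest difference of the set. It passed in 3 of the 7 fits, those without KO 5, KO 6 or WT 7.

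Components of the small subunit processome, the particle that first packs the precursor, came close to the threshold without passing. Heatr1 was at 0.38 ± 0.10 (limma adjusted p = 0.0588), Utp18 at 0.36 ± 0.10 (limma adjusted p = 0.0669) and Noc4l at 0.33 ± 0.10 (limma adjusted p = 0.0870). Nop14, the partner of Noc4l, was at 0.47 ± 0.15 (limma adjusted p = 0.100). In each of these 4 genes all KO arrays lay above all WT arrays. The helicase gene Ddx10 was at 0.26 and the processome gene Wdr43 at 0.15, both with overlap. Genes for enzymes and late factors of the small subunit overlapped as well: the methyltransferase genes Emg1 and Dimt1 were at 0.23 (0.040 without WT 6) and 0.05, and the GTPase-like factor gene Tsr1 at 0.08.

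Large subunit factors formed the biggest group, with 2 of 16 tested genes risen, beside 2.48% of all tested genes. All 16 differences were above 0, beside 47.6% of all tested genes, with a median of 0.31. Rrs1, which helps to bring the particle of the smallest rRNA into the large subunit precursor, was at 9.47, 9.35, 9.55 and 9.29 in KO and at 9.07, 8.99 and 8.81 in WT. The groups were clearly apart, and Rrs1 rose by 0.46 ± 0.11, or 1.38-fold (limma adjusted p = 0.0449). Nop16, a nucleolar factor of the large subunit, was at 7.31, 7.08, 7.10 and 7.20 in KO and at 6.84, 6.66 and 6.33 in WT. All KO arrays were again above WT, with the wider spread in WT, and Nop16 rose by 0.56 ± 0.13, or 1.48-fold (limma adjusted p = 0.0492). Neither gene passed in any of the 7 fits without a sample.

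Just beyond the threshold was Ebna1bp2, a large subunit scaffold, at 0.39 ± 0.10 (limma adjusted p = 0.0545). Brix1, another assembly factor, was at 0.34 ± 0.10 (limma adjusted p = 0.0796). In the complex of Pes1, Bop1 and Wdr12, which acts in processing of large subunit rRNA, Pes1 was at 0.37 ± 0.11 (limma adjusted p = 0.0766), Wdr12 at 0.30 ± 0.14 (limma adjusted p = 0.214) and Bop1 at 0.16 ± 0.11 (limma adjusted p = 0.391). Only Pes1 of the 3 had groups without overlap, and whether the 3 differ from each other was not tested.

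The 3 tested genes for GTPases of the large subunit had differences above 0, as did 47.6% of all tested genes, and none passed. Gtpbp4 was at 0.26 ± 0.09 without overlap (limma adjusted p = 0.124). Gnl2 was at 11.78, 11.61, 11.60 and 11.61 in KO but at 10.63, 11.42 and 11.78 in WT, so WT 5 was far below the rest and WT 7 level with the highest KO array. The difference was 0.38 ± 0.24 (limma adjusted p = 0.357) and 0.05 without WT 5. Gnl3, nucleostemin, a nucleolar GTPase known from stem cells, was at 0.15 ± 0.12 with overlap (limma adjusted p = 0.502). The remaining large subunit genes were Nip7 at 0.31, Rrp1b at 0.32, the rRNA methyltransferase gene Nop2 at 0.25, Noc3l at 0.17, Noc2l at 0.16 and the helicase gene Ddx18 at 0.05. Of these only Nip7 had groups without overlap. Ftsj3, a methyltransferase gene, had deposited signals of 38, 20, 28 and 23.1 in KO and 18, 12.3 and 11.6 in WT, too dim for the test although no value overlapped.

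**Figure D3:**
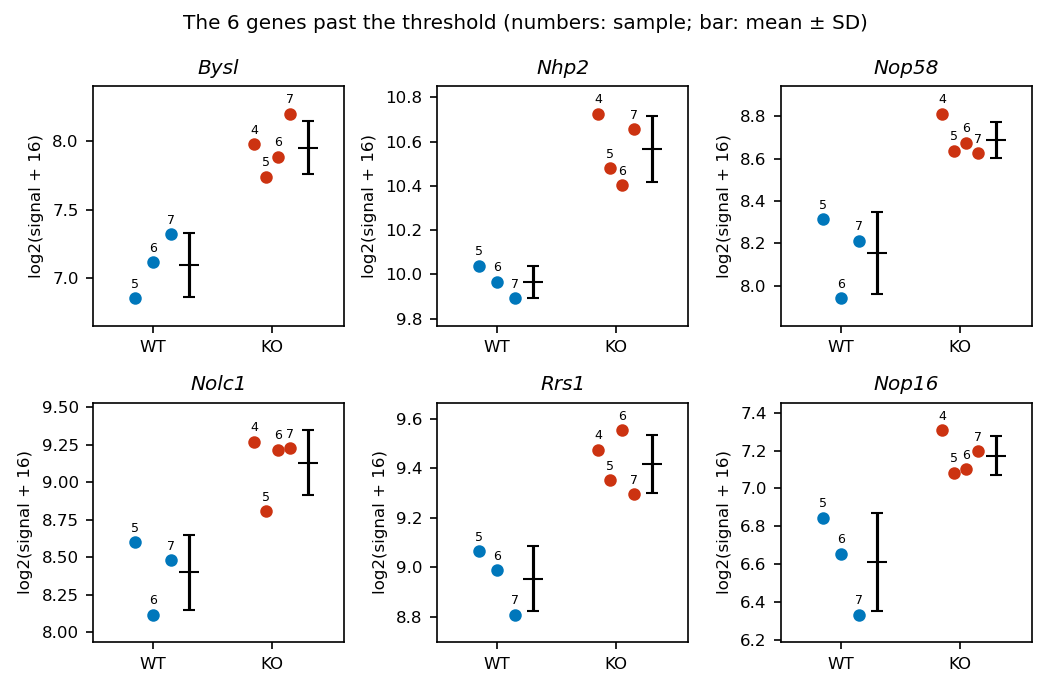
Level on each array (y axis, log2(signal + 16) after quantile normalization, scale set for each gene) in WT and KO (x axis) for the 6 genes that rose, with the sample number at each point and mean ± SD (4 KO, 3 WT). In each gene all 4 KO arrays lie above all 3 WT arrays, and KO 5 is the lowest KO array in Bysl, Nolc1 and Nop16.

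Other probe sets of the same genes offered a second reading of the RNA on the same arrays. The 28 genes with further probe sets above the limit on dim probe sets had 37 of them, of which 28 had a difference above 0 and 9 below, with a median of 0.27. In 9 of the 37 all KO arrays lay above all WT arrays, and in 1 all lay below. Over all tested genes, by their brightest probe sets, 47.6% had a difference above 0. All KO arrays lay above WT in 11.4% of those genes and below in 12.7%. For the genes that rose, the second probe sets gave 0.52 for Bysl, 0.51 for Nhp2, 0.64 and 0.34 for Nolc1 and 0.45 for Nop16, all above 0. The groups overlapped in the Nop16 one and in the Nolc1 one at 0.34 (two-sided exact permutation p = 0.229 and 0.143). Nop58 and Rrs1 had 1 probe set each. Larger differences than in the brightest probe set were seen for Polr1c (0.58), Ddx21 (0.59) and Noc4l (0.67). Disagreement in sign was widest in Gnl2, where the dimmest probe set gave -0.60 with no overlap (two-sided exact permutation p = 0.0286, the smallest possible), beside 0.38 in the brightest. Opposite signs were also seen in Ebna1bp2 (-0.15 beside 0.39), Ddx10 (-0.28 beside 0.26) and Ddx18 (-0.49 beside 0.05), each with overlap in the dimmer probe set. Fbl gave -0.04 in its dimmer probe set, which has no cross-matching suffix, while the brightest one, of the type that can match several transcripts, gave 0.48. In all, 9 of the 43 genes were represented by probe sets of such types, Nhp2 among those that rose.

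**Figure D4:**
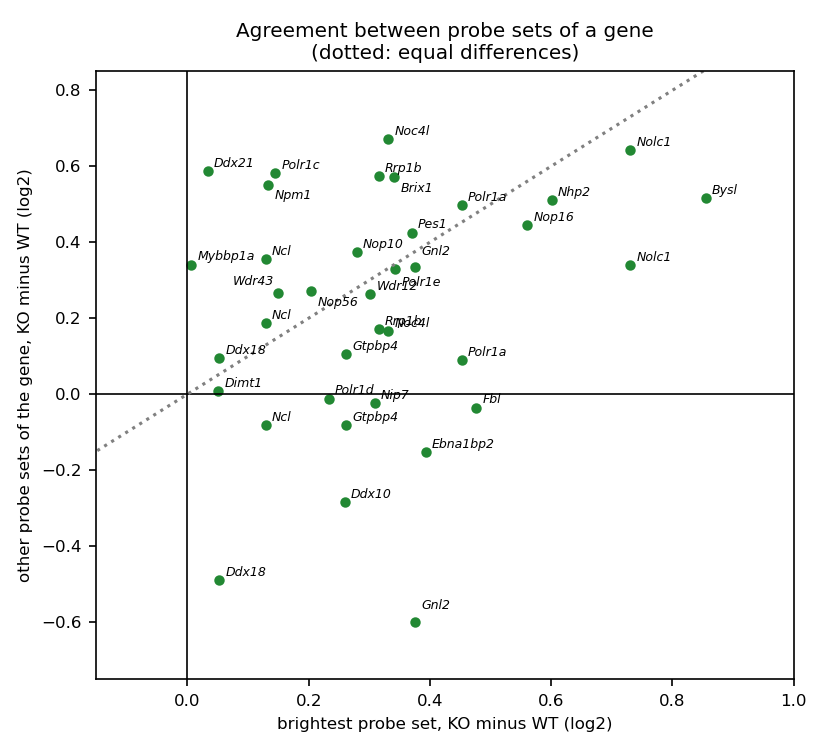
Difference KO minus WT (log2 units) in the brightest probe set of a gene (x axis) and in each other probe set above the limit on dim probe sets (y axis, 37 points from 28 genes), with a dotted line where both are equal. Of the 37 points, 28 lie above 0 on the y axis, and the lowest is a Gnl2 probe set at -0.60.

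Of the genes that rose, Bysl, Nhp2 and Nop58 had the lowest p. The sequences before their start sites are printed as a description, without a test of any link to the differences. They are the 250 bases before the RefSeq start in GRCm38.p6, at chr17:47611493-47611742 (minus strand), chr11:51619523-51619772 (plus strand) and chr1:59684756-59685005 (plus strand). Capitals mark matches on either strand to CACGTG (the E-box bound by MYC), CCGGAAG (an ETS factor motif), CCAAT or TATAAA.
Bysl: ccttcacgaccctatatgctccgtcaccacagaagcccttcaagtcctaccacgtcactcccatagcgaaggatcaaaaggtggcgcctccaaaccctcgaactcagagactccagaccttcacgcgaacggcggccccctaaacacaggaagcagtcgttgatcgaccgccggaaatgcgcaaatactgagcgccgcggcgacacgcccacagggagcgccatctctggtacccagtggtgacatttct
Nhp2: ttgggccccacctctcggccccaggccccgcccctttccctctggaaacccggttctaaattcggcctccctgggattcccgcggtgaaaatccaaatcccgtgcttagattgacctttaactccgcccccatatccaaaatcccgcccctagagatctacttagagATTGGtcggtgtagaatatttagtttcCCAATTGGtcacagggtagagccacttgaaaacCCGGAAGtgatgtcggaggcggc
Nop58: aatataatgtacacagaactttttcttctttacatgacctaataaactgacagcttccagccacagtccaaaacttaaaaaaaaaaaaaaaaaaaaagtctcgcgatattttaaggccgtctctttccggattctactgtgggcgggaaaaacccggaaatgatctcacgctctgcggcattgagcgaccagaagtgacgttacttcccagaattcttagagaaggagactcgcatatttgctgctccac
Bysl and Nop58 hold none of the 4 motifs in these windows. Nhp2 holds CCGGAAG once and CCAAT 3 times, as 2 of those matches overlap on opposite strands, and GC content is 54.8% in Nhp2, 58.4% in Bysl and 41.2% in Nop58. Of the 49 genes, 44 had 53 windows in the RefSeq table. Some genes, Ubtf among them, supplied several of these windows. CACGTG was present in 2 of the 53 windows (3.77%), in 8.36% of windows of all tested genes and in 6.02% of all windows. CCGGAAG was present in 20.8%, 14.1% and 6.91%, CCAAT in 20.8%, 34.9% and 33.8%, and TATAAA in 3.77%, 6.26% and 12.4%, in the same order. For the set that is 11 windows each for CCGGAAG and CCAAT and 2 for TATAAA. The shares were not tested against each other. CACGTG equals its own reverse complement and so counts once for both strands.

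Beyond these genes, the rest of the pathway gave calls in both directions. Of 125 further genes for ribosome assembly, 98 were tested, of which 5 rose (5.10%) and 2 fell. Of all tested genes, 2.48% rose and 2.96% fell, so falls were no more frequent here than over all genes. The median difference of the 98 genes was 0.17, with 73 differences above 0 (74.5%, beside 47.6% of all tested genes). Among other polymerase I subunits and factors, 2 of 10 rose, Polr2f (0.57 ± 0.10, limma adjusted p = 0.0245) and Polr2h (0.40 ± 0.08, limma adjusted p = 0.0348), both shared by RNA polymerases I, II and III. The median of those 10 genes was -0.0027. In the small subunit list 2 of 35 rose, Pno1, which works with the nuclease Nob1 (0.74 ± 0.17, limma adjusted p = 0.0425), and Utp11 (0.56 ± 0.13, limma adjusted p = 0.0456).

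Of 35 tested large subunit factors outside the set, Wdr74 rose (0.68 ± 0.15, limma adjusted p = 0.0372) and Nop53, an adaptor for the exosome, fell by 0.51 (limma adjusted p = 0.0313). With 1 call in each direction, these counts lie near the shares of all tested genes (2.48% and 2.96%). Among 18 genes for the nuclear exosome, which trims rRNA ends, and for snoRNP assembly, Exosc8 fell by 0.54 (limma adjusted p = 0.0499) and none rose. Of these 7 calls, Polr2f, Wdr74, Nop53 and Exosc8 each passed in 1 of the 7 fits without a sample, and the others in none.

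Myc, whose protein is known to drive transcription of ribosome assembly genes, was at 10.99, 10.47, 10.86 and 11.05 in KO 4 to 7 and at 10.44, 10.33 and 10.92 in WT 5 to 7. WT 7 lay among the KO arrays and KO 5 near WT, and the difference was 0.28 ± 0.18 (limma adjusted p = 0.383). Its relative Mycn was at 9.16, 9.25, 9.02 and 8.87 in KO and at 9.64, 9.44 and 9.71 in WT. Mycn fell by 0.52 without overlap (limma adjusted p = 0.0456), or by 0.10 in the scaling as deposited, and passed in none of the 7 fits.

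**Figure D5:**
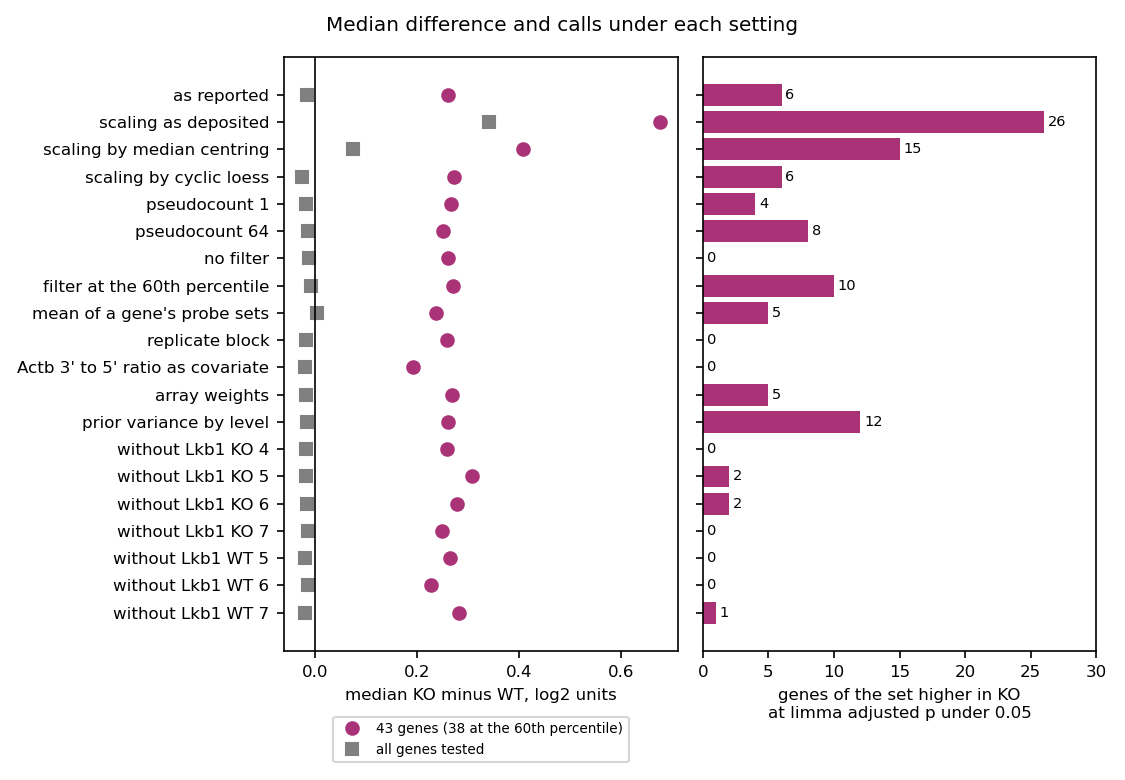
For each way of processing the data (y axis), the left panel gives the median difference KO minus WT in log2 units of the 43 ribosome genes (circles) and of all genes tested (squares), and the right panel the number of these genes higher in KO at limma adjusted p under 0.05. The circles run from 0.19 to 0.68 and lie to the right of the squares in every setting, while the count runs from 0 to 26.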

How the data were processed

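For each array and probe set the authors deposited 1 intensity, a linear signal. Per the submitters' processing notes the tool was MAS5, with settings and scaling not given in the sources used here. Of 22626 non-control probe sets, 20380 had 1 gene symbol in the platform annotation, 691 several and 1555 none. Signals were taken as log2(signal + 16) and quantile normalized over the 7 arrays. Such log2 differences understate changes of dim genes. Genes were kept where the brightest probe set had a mean above the 40th percentile (30.4 signal units). The comparison of KO with WT used limma 3.58.1 (R 4.3.3; 5 residual degrees of freedom, Benjamini-Hochberg over 8077 genes), tested on simulated data, and single probe sets by exact permutation over 35 splits. The spread of 7 arrays limits the precision. The 49 genes, the other lists and the roles were chosen with earlier results of these data known. All 49 genes could be named. Of the other pathway genes those past the threshold were named. For same-numbered KO and WT samples the deviations from group means correlated at 0.03, 0.10 and 0.05. For differently numbered samples among numbers 5 to 7 the correlations were all below 0, from -0.07 to -0.007. KO 4, without a WT sample of its number, correlated at 0.07 with WT 5, -0.07 with WT 6 and -0.001 with WT 7. Deviations from a group mean cancel out within the group, so the correlations depend on each other. These values do not settle whether same-numbered samples were paired. The main fit did not take the numbers as pairs, and a replicate block was run as an alternative. Alternatives covered scaling, pseudocount, filter, probe set choice, a replicate block, the Actb ratio, array weights, the prior variance and leaving out each sample.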

Additional observations from a re-analysis of the deposited data

Results flagged for a closer look

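In 2 of 45 genes looked at (the 43 tested genes, Myc and Mycn), 1 of the 4 KO arrays lay far from the other 3, while about 1 in 20 such groups is expected to do so by chance. Nolc1 was at 8.81 in KO 5 and between 9.22 and 9.27 in the other KO arrays. Gnl2 was at 11.78 in KO 4 and between 11.60 and 11.61 in the other KO arrays.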

How the results depend on the processing

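The 6 genes that rose kept their direction in every alternative that gave them a value, 19 for each and 18 for Nop16, which lay below the 60th percentile. Of the 43 genes, 26 kept their direction in all alternatives run. The number that rose, 6 as reported, was 26 as deposited, 15 with median centring, 0 of 45 tested with no filter, 10 of 38 with a filter at the 60th percentile, 12 with a prior variance by level, and 0 with the Actb ratio. It was 0 with the replicate block, and ranged from 0 to 2 without 1 sample. With the block or the Actb ratio, 0 of all 8077 genes rose, so the counts of calls in those 2 settings say nothing particular about the set. Other values did differ: the difference was above 0 in 40 of the 43 genes with the block and in 30 with the Actb ratio, beside 42 as reported. The median of all tested genes was -0.02 in each of these fits, and 41, 31 and 42 of the set lay above it. The Actb ratio did not overlap between KO and WT, so its fit can hardly separate the ratio from genotype. At an unadjusted p under 0.05 in limma, 15 of the 43 genes were higher with the replicate block (beside 9.37% of all genes), 2 with the Actb ratio (3.86%) and 21 of 45 with no filter (8.17%). The set's median was 0.68 as deposited and 0.41 with median centring. Among other pathway genes the 5 that rose became 39, 17, 3, 9, 0, 10, 3, 0, 0 and 9, as deposited, with median centring, pseudocounts of 1 and 64, no filter, a filter at the 60th percentile, the mean of a gene's probe sets, the replicate block, the Actb ratio and a prior variance by level, and 0 to 1 without 1 sample. The 2 that fell became 0 as deposited, with median centring, no filter, the mean of probe sets, the replicate block and the Actb ratio, 1 with a pseudocount of 1 or array weights, 3 with a filter at the 60th percentile or a prior variance by level, and 0 to 1 without 1 sample. Differences of genes that did not pass changed sign as follows. Gar1 was at 0.41 as deposited and 0.14 with median centring, and Npm1 at -0.021 with median centring and -0.039 with cyclic loess. With the mean of a gene's probe sets Ddx10 was at -0.013 and Ddx18 at -0.11. With the replicate block Dimt1 was at -0.0075 and Tsr1 at -0.026. With the Actb ratio the values were -0.33 for Polr1b, -0.19 for Ubtf, -0.16 for Nop56, -0.16 for Dimt1, -0.0090 for Tsr1, -0.11 for Bop1, -0.020 for Nop2, -0.060 for Noc2l, -0.030 for Noc3l, -0.21 for Ddx18, -0.23 for Gnl3 and -0.026 for Nip7. Without 1 sample, Ubtf ran from -0.021 to 0.14, Gar1 from -0.10 to 0.029, Mybbp1a from -0.040 to 0.056, Ddx21 from -0.047 to 0.13, Dimt1 from -0.0073 to 0.16, Tsr1 from -0.025 to 0.19 and Ddx18 from -0.039 to 0.14. The causes were not tested. With 4 and 3 arrays, the 95% interval of the difference lay above 0 in 21 of the 43 genes and included 0 in the other 22.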
